A study of Ovis aries with 40 samples.

Results

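Longissimus dorsi muscle of Ujumqin sheep fetuses was compared between 70 d (U70) and 85 d (U85) of gestation. The samples were chosen by their titles, which give breed, muscle, day post coitum and replicate, and they make up 6 of the 40 arrays of the series and 6 of its 31 fetal arrays. Ujumqin is a purebred sheep of low muscle and high fat, and neither group carried a transgene or a treatment beyond the hormones used to synchronize estrus in all dams. The study took fetuses by caesarean section from 3 ewes of each breed at each stage, after artificial insemination with sires of the same breed. Each group held 3 fetuses, of which the labels give replicates 1 and 2 as male and replicate 3 as female. The remaining Ujumqin fetal groups (U100, U120 and U135, 3 fetuses each) were used for the spread and for the later course. The fetuses of the Texel breed at 70 d (T70) and 85 d (T85), 3 at each stage, were used for comparison. Texel is a breed of high muscle and low fat. Each fetus gave 1 RNA extract of whole muscle and 1 array, so a lower signal can mean fewer cells of a type or less RNA per cell, which cannot be told apart here.

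Fetal muscle fibres form by the fusion of myoblasts, first as primary fibres and then as secondary fibres that grow along them. The young fibre builds sarcomeres, in which thick filaments of myosin slide along thin filaments of actin, tropomyosin and troponin between Z discs. Myosin heavy chain, the motor, comes from a family of genes, with slow, fast, embryonic and perinatal members that replace each other as the fibre matures. Fast fibres rely on glycolysis, and its muscle-specific enzymes appear as the fibres differentiate. The fibres lie in connective tissue that fibroblasts lay down and that continues into the tendon.

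The RNA carried a single dye, Cy3, and the Agilent sheep arrays held probes of 60 bases. Values are log2 signals after quantile normalization over the 31 fetal arrays, so 1 unit is a change of 2-fold, and levels of different probes are not compared. The median processed signal ran from 424 to 583 over the 6 arrays, between 85.2% and 90.9% of probes on an array were well above background, and no spot was saturated. All 6 arrays lay on 1 slide. A probe was called when its limma p, adjusted by the Benjamini-Hochberg method over the 14385 probes tested, was under 0.05 and its change was at least 2-fold. The fit took its spread from the 15 Ujumqin fetal arrays. With 3 arrays against 3, an exact permutation test of a single probe cannot go below 0.1, so the overlap of the groups is given beside the fit. The p-values measure the spread between these fetuses. Of 23 skeletal muscle markers, 6 had a tested probe with a gene name (MYOG, MYOD1, OMYHC2A, TNNC2, TPM1 and TPM2), and all 6 were well above background at both stages. The X-inactivation transcript XIST was at 7.69 and 7.70 in the females and at 1.40 to 1.76 in the males, and the Y-linked USP9Y was at 12.70 to 12.94 in the males and at 3.18 and 1.96 in the females, as the labels have it.

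The array of U70 replicate 1 correlated more closely with U85 replicates 1 and 2 than with the other U70 arrays. Its correlation over all tested probes was 0.993 with each of those U85 arrays and 0.986 with U85 replicate 3. With the other U70 arrays it was 0.987 and 0.988, while these correlated at 0.987 with each other. By this measure it was as close to the other U70 arrays as they were to each other. The stage of this fetus was taken from its label, and whether that label is right was not tested. The results are therefore given with and without that array. Replicate 1 of each stage is male, as is replicate 2, and the array lay on the same slide as the rest. Its median processed signal was 577, with 89.9% of probes well above background. In U70 replicates 2 and 3 the medians were 450 and 442, and the shares 85.7% and 85.2%. In U85 replicates 1, 2 and 3 the medians were 583, 495 and 424, and the shares 90.9%, 89.1% and 88.7%. The part of these array differences in the correlations was not tested.

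The probes behind the main rises are shown here because 3 of them share most of their bases and because the largest change belongs to a probe without a gene name. In the 3 probes for the fast myosins OMYHC2A and OMYHC2X, capitals mark the bases outside the run of 44 bases that all 3 share, and the remaining probes have no such run and stand in lower case. Both MYH1 probes carry a name of the type 2x chain too but share no such run, and the probes for the enzymes ENO3 and FBP2 and the thin filament protein TMOD4 for the muscle genes that rose.
OMYHC2A (A_70_P041861): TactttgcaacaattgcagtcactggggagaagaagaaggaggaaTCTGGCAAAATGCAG
OMYHC2A (A_70_P041862): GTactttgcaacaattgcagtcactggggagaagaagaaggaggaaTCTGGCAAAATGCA
OMYHC2X (A_70_P041866): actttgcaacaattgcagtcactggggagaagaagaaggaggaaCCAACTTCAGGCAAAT
MYH1 (A_70_P050846): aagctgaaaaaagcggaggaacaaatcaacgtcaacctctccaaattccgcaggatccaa
MYH1 (A_70_P018506): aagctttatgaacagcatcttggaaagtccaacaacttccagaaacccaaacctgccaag
TMOD4 (A_70_P038871): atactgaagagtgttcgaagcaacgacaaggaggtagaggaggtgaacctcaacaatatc
ENO3 (A_70_P022246): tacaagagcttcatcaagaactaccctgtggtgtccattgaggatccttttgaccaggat
FBP2 (A_70_P063416): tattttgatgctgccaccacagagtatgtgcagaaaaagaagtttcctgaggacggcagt
probe without a gene name (A_70_P038301): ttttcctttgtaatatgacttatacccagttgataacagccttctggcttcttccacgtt

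Between 70 and 85 d, 31 of 14385 probes were called, which is 0.216% of those tested. They were 24 probes higher at 85 d (0.167%) and 7 lower (0.0487%). At an unadjusted p under 0.05 with 2-fold, 122 probes were higher and 108 lower, and 44 probes had an adjusted p under 0.05 at any fold. Of the 31, 15 had a gene name, 11 of them higher and 4 lower. The named rises were in genes of the sarcomere (TMOD4, OMYHC2A and OMYHC2X), of sugar metabolism (FBP2 and ENO3), in the homeobox gene BARX2, and in genes of secreted proteins or their processing (INHBB, MMP-1, QPCT and NPVF). The named falls were BCL11B, SNX10, CBLN2 and RGS2. Leaving out U70 replicate 1, with 2 arrays at 70 d, gave 115 called probes (0.799%), of which 42 were higher (0.292%) and 73 lower (0.507%), so that falls then outnumbered rises. Of the 31 probes, 30 were called in both fits. BARX2, QPCT, SNX10, A_70_P026901 and A_70_P038301 were called whichever of the 6 arrays was left out, and each of the other called probes missed the threshold without at least 1 array.

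**Figure D1:**
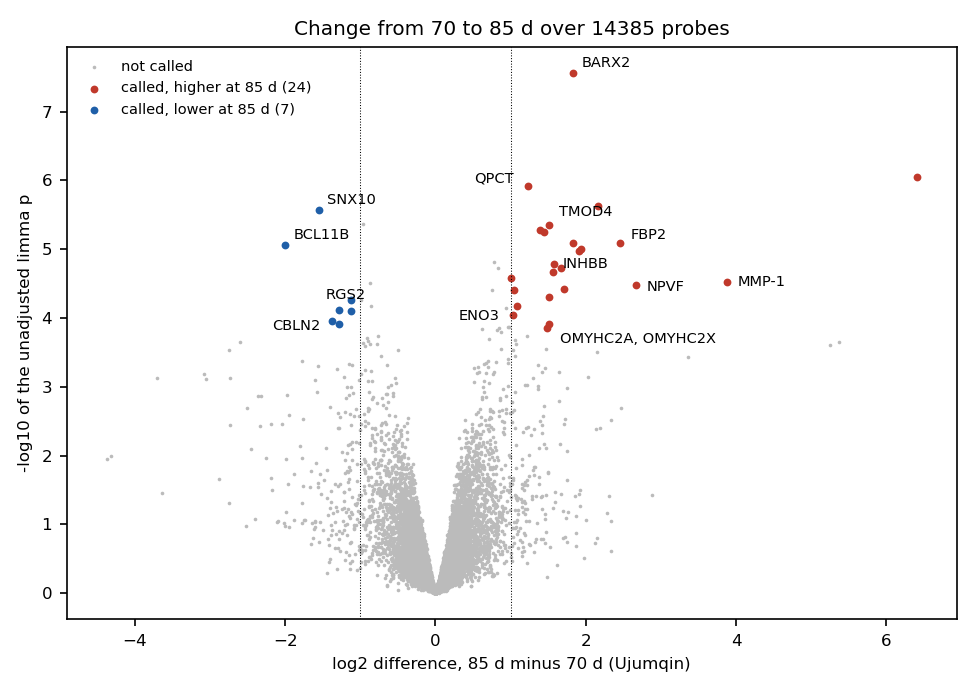
Each point is 1 of 14385 probes, with the log2 difference between 85 and 70 d on the x axis and the -log10 of the unadjusted limma p on the y axis. The dotted lines mark 2-fold, and the 24 probes called higher outnumbered the 7 called lower, with BARX2 at the smallest p.

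Of 5 thick filament genes tested, 1 was called higher and 0 lower, beside 0.167% and 0.0487% of all probes. Counted the same way, with 1 probe per gene, 7 of all 1161 named genes were called higher and 3 lower. The median change of the list was -0.23 against -0.00 over all probes. The sign of this median depended on the choice of 1 probe per gene. Over all 9 tested probes of these genes it was 0.96, with 3 called higher, those of OMYHC2A and OMYHC2X. The gene called with 1 probe per gene was OMYHC2A, the fast type 2a myosin heavy chain of sheep. It counted by the probe A_70_P041861, which rose by 1.48 ± 0.28 (SE, n = 3 and 3) on the log2 scale (limma adjusted p = 0.0479). The other OMYHC2A probe, A_70_P041862, shares a run of 59 bases with it and had the smaller p. That probe gave 12.86, 11.94 and 11.74 on the U70 arrays and 13.66, 13.90 and 13.54 on the U85 arrays, without overlap. Its rise was 1.52 ± 0.25, 2.86-fold, with a limma adjusted p of 0.0263. OMYHC2X, the fast type 2x chain, went from 12.68, 11.72 and 11.28 to 13.48, 13.49 and 13.26. Its rise was 1.52 ± 0.28 with a limma adjusted p of 0.0468. The 3 probes, which share the 44-base run shown above, differed by at most 0.04 in their change, so their signals cannot be assigned to the 2a or the 2x gene separately. In each of them U70 replicate 1 was the highest U70 array, and without it the rises were 1.85, 1.86 and 1.91.

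The MYH1 probes have runs of at most 8 bases in common with those 3, although MYH1, the study's name for them, and OMYHC2X both stand for the type 2x chain. The probe A_70_P050846 gave 9.94, 10.17 and 9.86 at 70 d and 10.67, 10.80 and 11.38 at 85 d. Its difference of 0.96 ± 0.18 had a limma adjusted p of 0.0479 but stayed under 2-fold. For the other MYH1 probe the difference was 1.07 ± 0.21 with an adjusted p of 0.0610. Both were higher on every U85 array than on any U70 array. The slow chain OMYHCS, typical of slow oxidative fibres, ran the other way, at 8.42, 8.80 and 8.96 against 7.93, 8.25 and 8.27, and was not called (difference -0.58 ± 0.20, limma adjusted p = 0.417). MYL6B, an alkali light chain of slow and non-muscle myosin, was at 17.51, 17.03 and 17.38 in U70 and at 16.39, 16.71 and 16.14 in U85. The stages did not overlap, yet the difference of -0.89 ± 0.17 missed the threshold (limma adjusted p = 0.0603). MYL6, a related light chain, differed by -0.23.

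Of 4 thin filament genes, 1 was called higher, beside 7 of 1161 named genes. All 4 had a positive difference, with a median of 0.39. The gene called was TMOD4, a tropomodulin that caps the pointed end of the actin filament in skeletal muscle. The U70 arrays gave 9.61, 9.33 and 9.76 and the U85 arrays 10.84, 10.79 and 11.58. The rise of 1.51 ± 0.20 was 2.84-fold (limma adjusted p = 0.00900), and it was 1.53 without U70 replicate 1. The fast troponin C gene TNNC2 lay near the top of the scale, with means of 18.87 and 18.90. The tropomyosins TPM1 and TPM2 differed by 0.38 ± 0.17 and 0.40 ± 0.43 with overlapping stages. These 3 were not called.

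Of 8 genes of the Z disc and costamere, 0 were called, although 7 had a positive difference and 3 had an unadjusted limma p under 0.05, beside 7177 and 1198 of all 14385 probes. ACTN3, the actinin of fast fibre Z discs, had signals of 9.88, 9.47 and 9.16 at 70 d and 11.11, 10.32 and 10.98 at 85 d. The stages did not overlap, and the difference of 1.30 ± 0.29 had a limma adjusted p of 0.105. FBXO32, a muscle ubiquitin ligase, differed by 1.42 ± 0.40 (limma adjusted p = 0.237), again with no overlap. The other 6 genes, PDLIM4, CRYAB, ANKRD1, CMYA5, DTNB and CAPN3, lay between -0.57 and 0.37. Among 3 genes of calcium handling, CASQ1, the calcium store of the sarcoplasmic reticulum, differed by 1.03 ± 0.21 with a limma adjusted p of 0.0661, which became 0.0331 without U70 replicate 1.

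**Figure D2:**
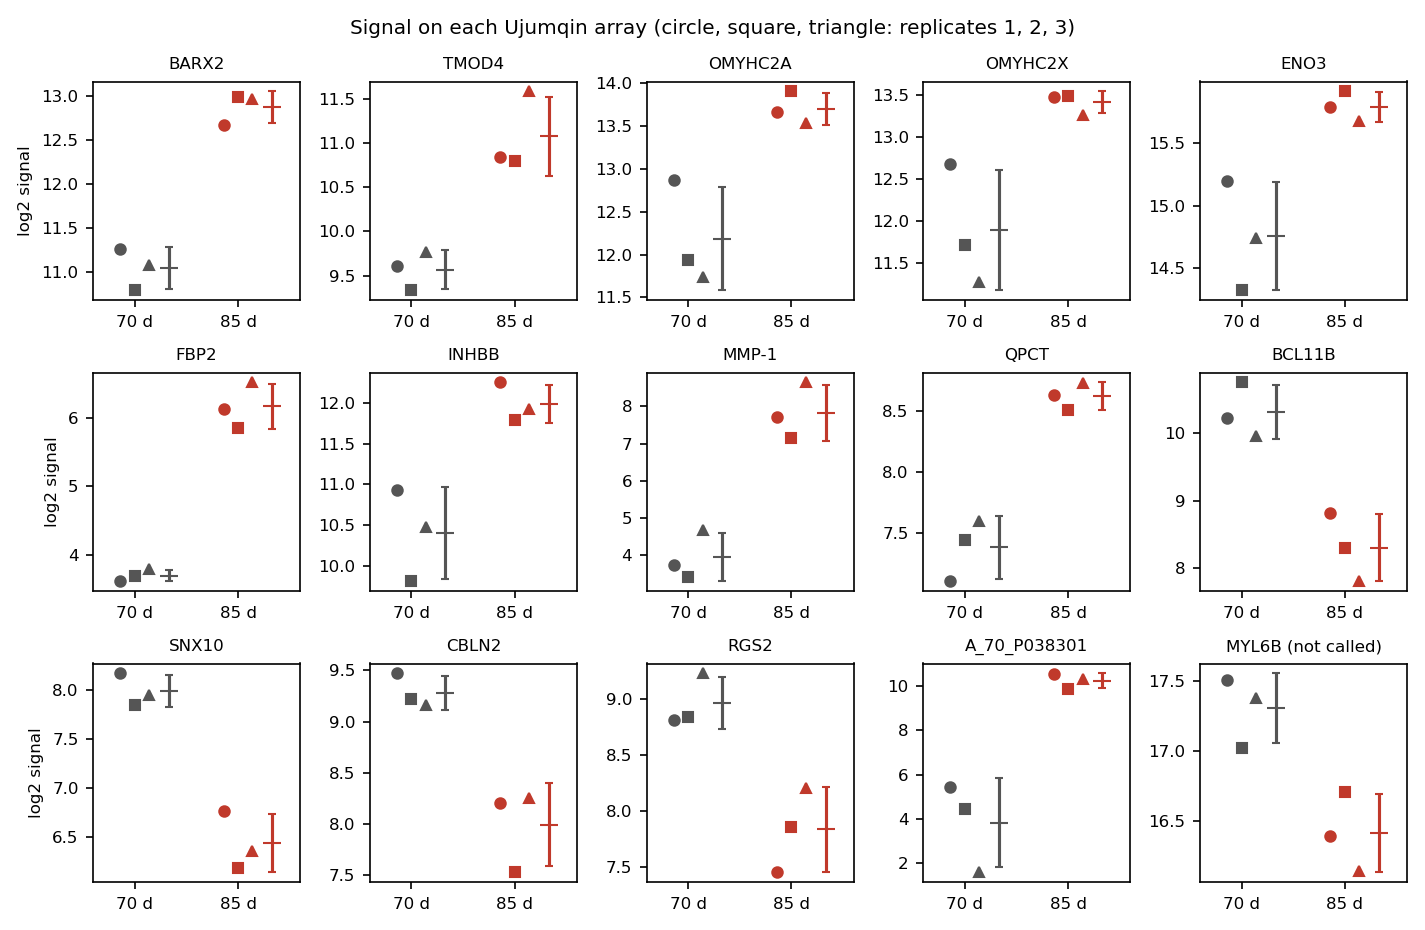
Log2 signal of 15 probes on each Ujumqin array at 70 d (grey) and 85 d (red), with the mean ± SD of 3 arrays beside the points. The stages did not overlap in any panel, and MYL6B, with a limma adjusted p of 0.0603, is the panel that was not called.

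Of 13 genes of glycolysis and sugar metabolism, 2 were called higher and 0 lower, beside 7 and 3 of 1161 named genes. The median difference was 0.34. FBP2, the muscle fructose bisphosphatase, was at 3.63, 3.70 and 3.80 on the U70 arrays, where it was well above background on 1 of 3, and at 6.12, 5.85 and 6.51 on the U85 arrays, where it was so on all 3. The rise of 2.45 ± 0.34 was 5.48-fold (limma adjusted p = 0.0104) and came to 2.42 without U70 replicate 1. ENO3, the muscle enolase, gave 15.19, 14.33 and 14.74 and then 15.78, 15.91 and 15.67. The rise of 1.03 ± 0.18 just passed 2-fold (limma adjusted p = 0.0377). A further pair of ENO3 probes differed by 0.99 and 0.91 and were not called (limma adjusted p = 0.198 and 0.235). Of the other members, LDHA (0.54), PFKM (0.53) and the glucose transporter glut4 (1.02) were among those not called, while HK1 (-0.36), GLUT-1 (-0.22) and SLC2A3 (-0.01) had negative differences. Of 11 genes of muscle energy metabolism 0 were called, with a median of 0.40, and the glycogen phosphorylases differed by 0.64 for the muscle gene PYGM and by -0.47 for the brain gene PYGB.

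BARX2, a homeobox transcription factor expressed in muscle precursors, had the smallest p of all probes. Its signal was 11.27, 10.79 and 11.08 at 70 d and 12.67, 12.99 and 12.97 at 85 d. Every U85 array was more than 1 unit above every U70 array, and the rise of 1.83 ± 0.15 was 3.56-fold (limma adjusted p = 0.000396). Leaving out any 1 of the 6 arrays kept the call, with rises between 1.70 and 1.94 and limma adjusted p-values between 0.000455 and 0.00551. BARX2 was the only gene called among 19 of the myogenic regulation list, whose median difference was 0.03. Among 1161 named genes, 7 were called higher and 3 lower.

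The myogenic factors themselves were not called. MYOD1 and MYF5, which commit cells to the muscle lineage, differed by 0.10 ± 0.20 and -0.16 ± 0.23 with overlapping stages. MYOG, which drives the differentiation of myoblasts, was at 10.74 in U70 replicate 1 and at 9.94 and 9.88 in the other U70 arrays, against 10.74, 10.47 and 10.37 in U85, a difference of 0.34 ± 0.24 (limma adjusted p = 0.799). Leaving that array out gave 0.61 (limma adjusted p = 0.214). MET, the receptor of hepatocyte growth factor on muscle precursors, had 12.62, 12.42 and 12.38 and then 12.96, 13.30 and 12.99, without overlap but not called (0.61 ± 0.28). The activin subunit INHBA was lower by 0.61 ± 0.36 in the mean, with overlapping stages, and SMAD7, an inhibitor of transforming growth factor beta signalling, was higher by 0.62. The other members lay between -0.33 and 0.78, among them HGF, the activin antagonist FST, the activin receptor ACVR2B, SMAD2, SMAD3, KLF9, TEAD1, CAPN1, CAPN2, CAPNS1 and CAST.

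None of the 14 genes of the insulin-like growth factor system was called, and their median difference was -0.10. IGF2, the main fetal growth factor of the family, had means of 17.86 and 17.99, and IGF1 differed by 0.17. The receptors IGF1R and IGF-IIR differed by -0.10 and 0.11. The member with the largest difference was the binding protein IGFBP2, at -0.66 without overlap between the stages (limma adjusted p = 0.140). The rest, GH, GHR, GHRHR, IGFBP1, IGFBP-3, IGFBP4, IGFBP5, IGFBP6 and PIK3R1, lay between -0.31 and 0.29.

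Several rises were in genes for secreted proteins or for their processing. INHBB, the beta B subunit of activins and inhibins, went from 10.94, 9.81 and 10.47 to 12.25, 11.79 and 11.92. The rise of 1.58 ± 0.24 was 2.99-fold (limma adjusted p = 0.0149). QPCT, the enzyme that forms pyroglutamate at the ends of peptides, went from 7.11, 7.44 and 7.61 to 8.63, 8.51 and 8.73, a rise of 1.24 ± 0.14 (limma adjusted p = 0.00584). Both genes showed no overlap, and their called rises were 1.85 and 1.10 without U70 replicate 1.

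MMP-1, the collagenase that cuts fibrillar collagen, had the largest rise among the called probes with a gene name. The probe A_70_P026537 gave 3.74, 3.42 and 4.68 at 70 d and 7.70, 7.15 and 8.64 at 85 d, and it was well above background on 2 of 3 and then on 3 of 3 arrays. The rise of 3.88 ± 0.61 was 14.8-fold (limma adjusted p = 0.0203). The other MMP-1 probe, the brighter, differed by 3.36 ± 0.68 and was not called (limma adjusted p = 0.0780). NPVF, the precursor of RFamide neuropeptides, was well above background on 0 of 3 arrays at 70 d and on 3 of 3 at 85 d. Its means were 1.99 and 4.66, and against the lowest measurable signal it was at least 2.34-fold higher (limma adjusted p = 0.0206), while a second NPVF probe was not called (limma adjusted p = 0.0699).

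The named falls were fewer, and the list of neural genes held 1 of them. BCL11B, a zinc finger transcription factor of lymphoid, skin and neural cells, fell from 10.23, 10.74 and 9.95 to 8.81, 8.29 and 7.81, a 4.00-fold fall (SE 0.28 on the log2 scale, limma adjusted p = 0.0104). SNX10, a sorting nexin of the endosome, fell from 8.17, 7.85 and 7.95 to 6.77, 6.18 and 6.36, a difference of -1.55 ± 0.19 (limma adjusted p = 0.00771). In both genes the U70 arrays all lay more than 1 unit above the U85 arrays. CBLN2, a secreted synapse organizer, fell from 9.47, 9.22 and 9.16 to 8.21, 7.53 and 8.25, a difference of -1.29 ± 0.24 with a limma adjusted p of 0.0468, which was 0.0574 without U70 replicate 1. RGS2, a brake on G protein signalling, fell from 8.82, 8.85 and 9.23 to 7.45, 7.85 and 8.21, a difference of -1.13 ± 0.20 (limma adjusted p = 0.0338), and its other probe differed by -0.86 (limma adjusted p = 0.0962). LPAR1, a receptor of lysophosphatidic acid, was lower by less than 2-fold, with a difference of -0.87 ± 0.14 (limma adjusted p = 0.0204).

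Of the 31 called probes, 13 higher and 3 lower had no gene name here. The probe A_70_P038301 had the largest difference of all 14385 probes. It gave 5.45, 4.46 and 1.58 at 70 d, well above background on 2 of 3 arrays, and 10.53, 9.86 and 10.31 at 85 d. The value of 1.58 is the lowest of that array, which 561 tested probes share, so the size of the change depends on the floor. The rise was 6.40 ± 0.72 (limma adjusted p = 0.00584), 7.21 without U70 replicate 1, and 5.59 with the signals set to at least 16 before log2, which is 48.3-fold. The 3 U70 arrays were spread over almost 4 units, against less than 1 unit for the U85 arrays. Of the other probes without a name, A_70_P026901 rose by 2.16 (limma adjusted p = 0.00771) and A_70_P001556 by 1.93 (limma adjusted p = 0.0110). The falls were A_70_P056966 at -1.37, A_70_P027921 at -1.28 and A_70_P024096 at -1.13, with limma adjusted p-values of 0.0441, 0.0333 and 0.0271. Of the remaining called rises without a name, A_70_P021351 was well above background on 0 of 3 arrays at 70 d and on 2 of 3 at 85 d, so no fold is given, and with the floor of 16 both stages lay at the floor. The other 9 were between 2.00-fold and 3.76-fold.

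In genes of type I collagen, U70 replicate 1 lay with the U85 arrays. Of 23 genes of collagen and extracellular matrix, 0 were called with all arrays, and without U70 replicate 1 there were 2 called lower, COL1A1 and COL1A2, the chains of type I collagen. COL1A1 was at 9.57 in U70 replicate 1, at 11.41 and 11.21 in the other U70 arrays, and at 9.75, 9.62 and 10.02 in U85. The difference was -0.93 ± 0.39 (limma adjusted p = 0.527) with all arrays and -1.51 (limma adjusted p = 0.0180) without it. For COL1A2 the corresponding differences were -0.89 (limma adjusted p = 0.586) and -1.45 (limma adjusted p = 0.0425). TNMD, a membrane protein of tendon cells, gave 13.82, 16.76 and 16.37 at 70 d and 10.79, 12.36 and 10.70 at 85 d. The stages did not overlap, but the difference of -4.37 ± 1.47 was not called with all arrays (limma adjusted p = 0.385) or without U70 replicate 1 (-5.29, limma adjusted p = 0.162). COL3A1, the chain of type III collagen, had higher values at 85 d (0.29 ± 0.15), and the proteoglycan gene DCN differed by -0.18. Of the 5 fibroblast and tendon markers measured, 4 had a negative difference and COL3A1 a positive one, with a median of -0.89, and 0 were called with all arrays.

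**Figure D3:**
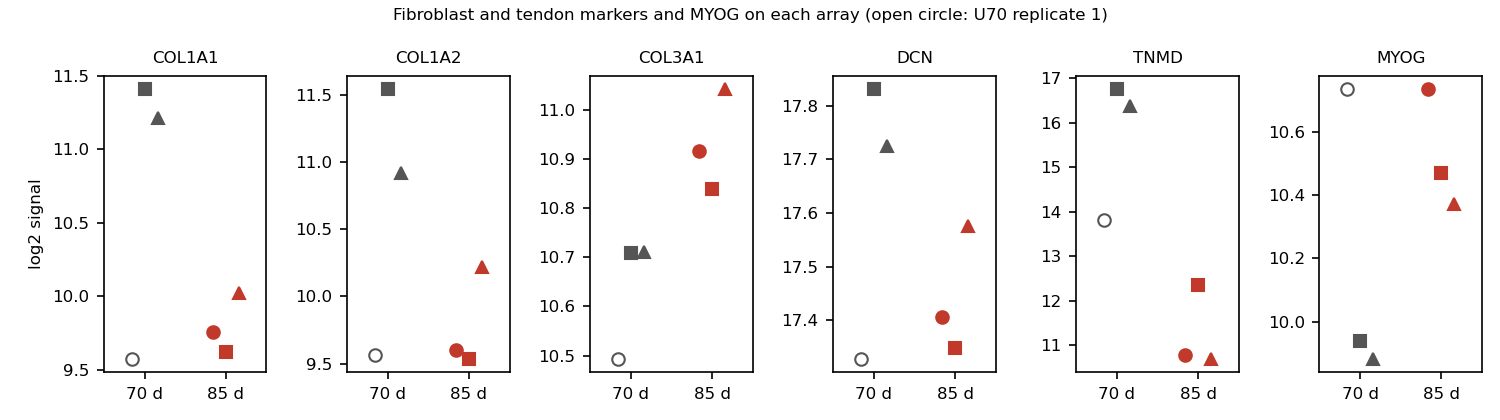
Log2 signal of 5 fibroblast and tendon markers and of MYOG on each Ujumqin array at 70 and 85 d, with U70 replicate 1 as the open circle. In COL1A1 (9.57) and MYOG (10.74) that array lay at the level of the U85 arrays.

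The summed signal of those 5 markers was 181956 in U70 replicate 1, 351474 and 307364 in the other U70 arrays, and 175555 to 201370 in the U85 arrays. All 5 were well above background at both stages, and LUM and SCX of the same list had no tested probe with a name. The summed signal of the muscle markers was 682920, 540048 and 662185 in U70 and 656535 to 693453 in U85. Such sums are on the linear scale and follow their brightest probes, such as TNNC2 for muscle. They do not measure the amount of a tissue. Over the 115 probes called without U70 replicate 1, that array lay on the U85 side of the other U70 arrays for 109, beside 10981 of all 14385. Both counts are measured from the same pair of U70 arrays, and the 115 were chosen without U70 replicate 1, so they describe that array and test nothing. Besides the collagens, the named falls of that fit that were not called with all arrays were in the Wnt modulator SFRP2 (13.12, 14.04 and 14.02 against 12.85, 12.18 and 12.58), the activin and BMP decoy receptor BAMBI, the gastrin-releasing peptide gene GRP, GCG, SERPINF1 and AT2. The added rises were CASQ1, the MYH1 probe A_70_P018506 and the endothelial receptor TIE1. The part of the amount of connective tissue on an array in these differences was not tested.

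Of the remaining lists, the neural list alone held a called gene. None of 22 cell cycle genes was called, but 17 had a negative difference, the median was -0.32 against -0.00 over all probes, and 6 had an unadjusted limma p under 0.05, beside the 1198 of 14385 probes given above. The mitotic kinesin gene CENPE differed by -0.72 (limma adjusted p = 0.237), the cyclin gene CCNA2 by -0.49 (limma adjusted p = 0.372) and the mitotic kinase gene AURKA by -0.44 (limma adjusted p = 0.526), each without overlap between the stages. Among 15 genes of endothelium and vessels, 0 were called, 13 had a positive difference and the median was 0.53. The growth factor gene VEGFA gave 9.22, 9.12 and 9.19 at 70 d and 9.81, 9.84 and 10.95 at 85 d, a difference of 1.02 ± 0.27 (limma adjusted p = 0.196). TIE1 differed by 0.77 ± 0.20 (limma adjusted p = 0.196). In both the stages did not overlap.

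Among 6 neural and Schwann cell genes, with a median difference of 0.03, CBLN2 was the 1 called. STMN2, CHL1 and PRNP had positive differences of 1.18, 0.77 and 0.11, GFAP had -0.06, and the calcium sensor VSNL1 was at 9.57, 10.22 and 9.84 and then at 7.82, 8.04 and 7.85 without being called (-1.97 ± 0.48, limma adjusted p = 0.142). None was called among 24 adipose and lipid genes (median -0.10), 49 leukocyte genes (-0.04), 16 interferon-stimulated genes (0.09), 8 cartilage and bone genes (0.10), 10 liver and serum protein genes (-0.17), 4 erythroid genes (0.03) or 19 ribosomal protein genes (-0.01). The stress and immediate early list had 0 of 14 called and a median of 0.15, and its C-FOS, a transcription factor induced within minutes of many stimuli, was at 5.76, 5.76 and 5.71 and then at 7.02, 9.88 and 7.35 (limma adjusted p = 0.224). The haemoglobin gene HBB, the only erythroid marker tested, ran from 50112 to 176488 over the U70 arrays and from 60107 to 165597 over the U85 arrays on the linear scale.

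**Figure D4:**
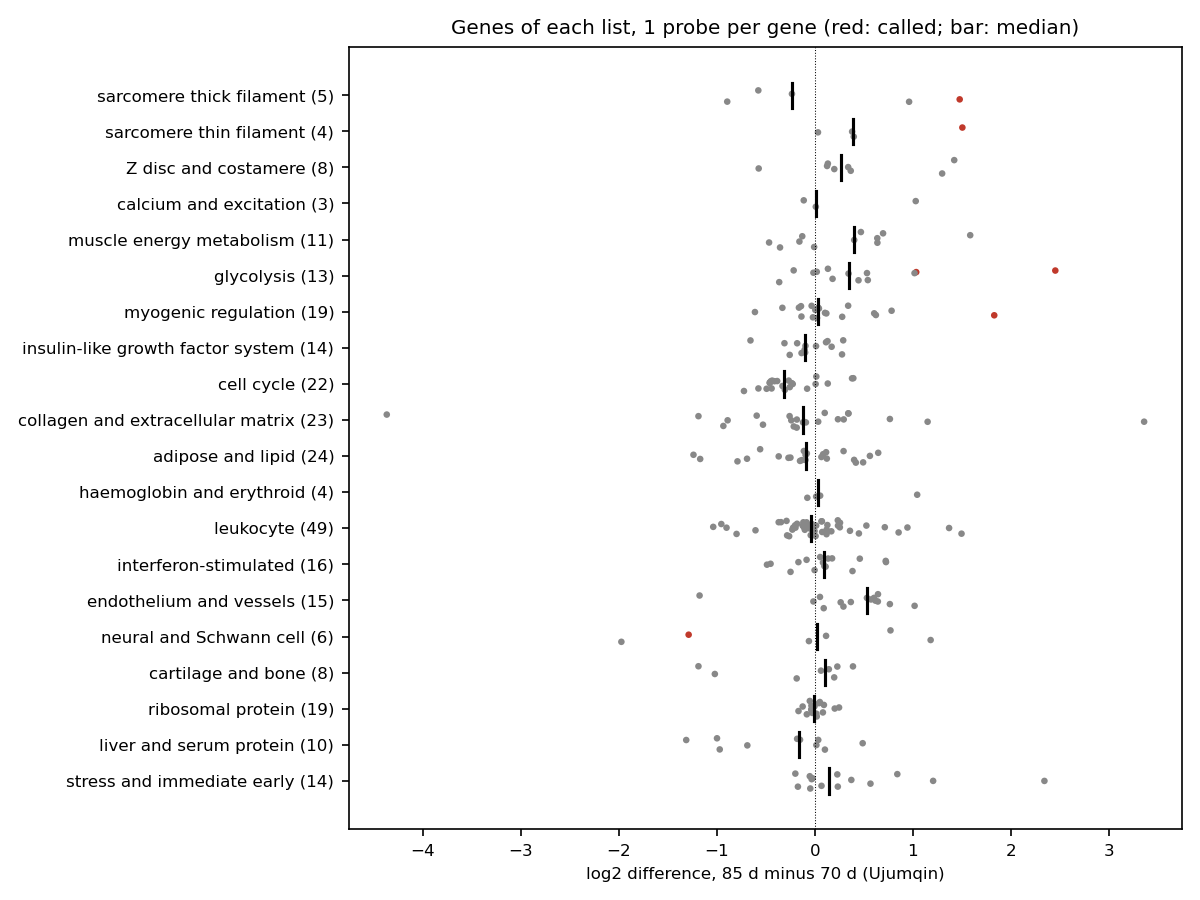
Log2 difference between 85 and 70 d for each gene of the 20 lists, with the number of genes tested in parentheses, called genes in colour and a bar at each list's median. The medians ran from -0.32 for the cell cycle to 0.53 for endothelium and vessels, beside -0.00 over all 14385 probes.

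The later Ujumqin stages give levels for the same probes, with no test. The U100 fetuses were male, female and male, and the U120 and U135 fetuses were all female. The U70 and U85 arrays lay on slide 2, U100 on slides 3 and 4, U120 on slide 4 and U135 on slide 5. Stage, sex and slide cannot be told apart in this course. Of the 24 probes called higher at 85 d, 22 had a higher mean at 100 d, beside 7083 of all 14385 probes. The exceptions were OMYHC2X (13.41 at both stages) and the dim probe A_70_P021351. At 135 d all but MMP-1 and that dim probe were above their U70 mean, beside 6834 of all 14385. Of the 7 called lower, all but A_70_P024096 were below their U70 mean at 135 d. The called probes were chosen by their U70 values, so the comparisons with the U70 mean are not independent of that choice. FBP2 went on from 6.16 at 85 d to 10.52, 12.16 and 13.92 at 100, 120 and 135 d, and TMOD4 from 11.07 to 13.01, 14.36 and 14.99. The MYH1 probe A_70_P050846 went from 10.95 to 14.51, 17.14 and 17.55. The OMYHC2A probe A_70_P041862, by contrast, was near its later level at 85 d, with 13.70 there and 13.77, 13.84 and 14.10 afterwards. Its signal cannot be assigned to the 2a or the 2x gene separately. From 85 to 100 d OMYHC2X and MYH1 ran unlike courses, although both names stand for the type 2x chain, and the reason was not tested.

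BARX2 and MMP-1 had their highest mean in between. BARX2 had means of 12.88, 13.49, 13.02 and 11.83 from 85 to 135 d. MMP-1 was at 7.83, 9.39, 8.26 and 3.08, so the mean at 135 d was below that at 70 d, 3.95. The falls of BCL11B, SNX10 and CBLN2 went on, to 6.78, 5.48 and 5.39 at 135 d. MYL6B, lower at 85 d in every fetus, was at 17.26, 17.89 and 18.11 at the later stages, so that its lowest mean was that at 85 d.

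**Figure D5:**
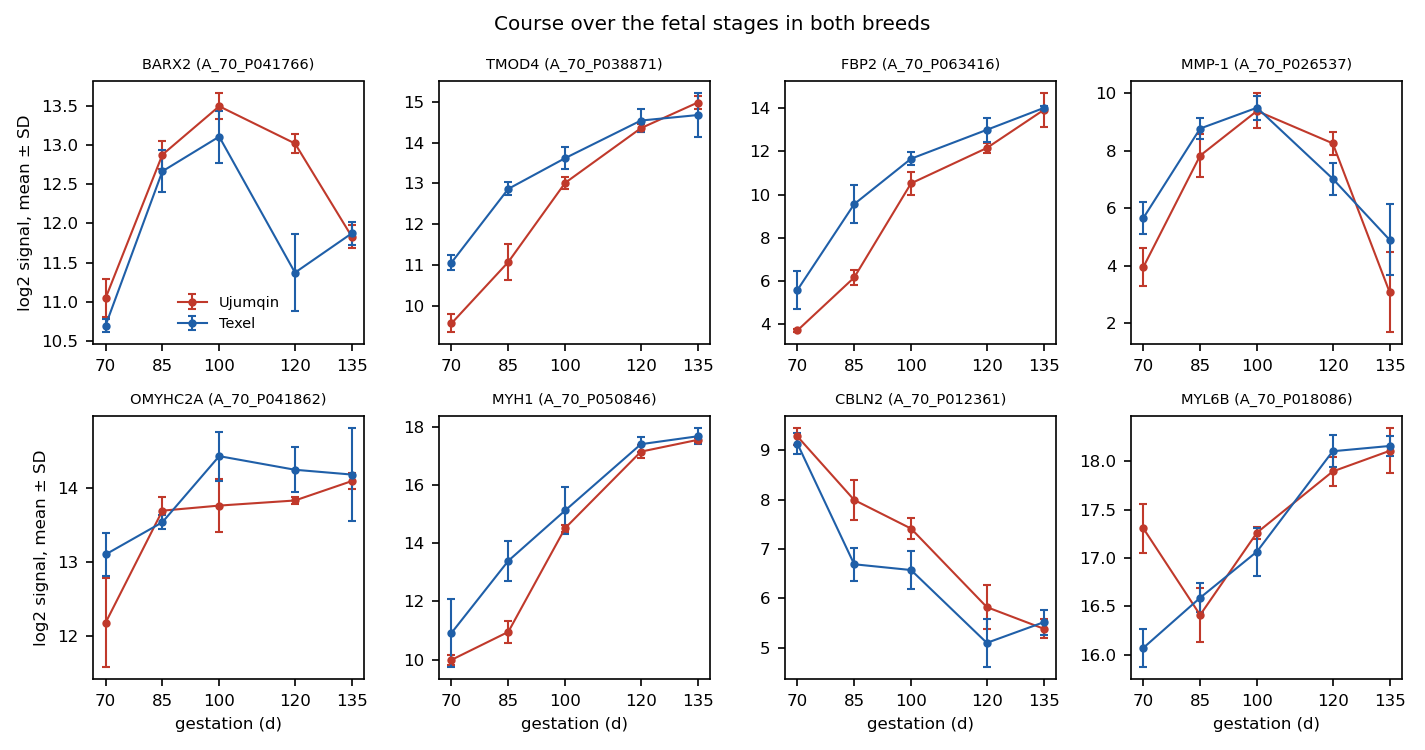
Mean log2 signal ± SD of 8 probes at 5 stages of gestation in Ujumqin (red, 3 fetuses a stage) and Texel (blue, 3 fetuses a stage and 4 at 100 d). BARX2 and MMP-1 were highest at 100 d in both breeds, FBP2 and MYH1 kept rising in the mean to 135 d, and MYL6B at 70 d was at 17.31 in Ujumqin and at 16.07 in Texel.

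Texel fetuses of the same stages share no array with the Ujumqin comparison. By label the T70 fetuses were female, male and female, and the T85 fetuses female, male and male. The T70 arrays and T85 replicates 1 and 2 lay on slide 1, and T85 replicate 3 lay on slide 2 with the U70 and U85 arrays. Sex and slide thus differed between the breeds and between T70 and T85. In the fit of the 31 fetal arrays in 10 groups, 56 probes were called between T70 and T85 (0.389%). That fit took its spread from both breeds and called 25 probes between U70 and U85. The 31 probes called in Ujumqin come from the fit of the 15 Ujumqin arrays. Of the 31 probes called in Ujumqin, 30 had the same sign of change in Texel (96.8%), beside 62.8% of all probes tested, and the exception was A_70_P021351. Of the 31, 11 were also called in Texel, among them BARX2, TMOD4, FBP2, INHBB, MMP-1 and CBLN2. The change of BARX2 was 1.97 in Texel, that of TMOD4 1.81, that of FBP2 3.98 and that of MMP-1 3.12. CBLN2 had -2.44 in Texel beside -1.29 in Ujumqin. Of the 115 probes called without U70 replicate 1, 109 had the same sign in Texel (94.8%), beside 60.1% of all probes in that fit. COL1A1 and TNMD, on which U70 replicate 1 lay apart, had Texel differences of -0.94 and -2.61, neither of them called (limma adjusted p = 0.478 and 0.735).

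The difference between the breeds in the change from 70 to 85 d was tested in a fit of the 31 fetal arrays, and 0 of 14385 probes were called (0.0%), with 142 at an unadjusted limma p under 0.05 and 2-fold. The smallest p belonged to MYL6B. Its mean went from 17.31 ± 0.25 to 16.41 ± 0.28 in Ujumqin and from 16.07 ± 0.20 to 16.59 ± 0.15 in Texel (SD, n = 3 each). The changes differed by -1.41 ± 0.24 (SE), with a limma adjusted p of 0.0673. It was called with the deposited normalized values (limma adjusted p = 0.0446), without U70 replicate 2 (limma adjusted p = 0.0274) and without U85 replicate 2 (limma adjusted p = 0.0239), and under none of the other 15 alternatives. Among those its limma adjusted p was 1.00 under 75th percentile scaling, 0.675 on the 12 arrays alone, 0.420 without U85 replicate 3 and 0.306 with slide as a block. The fast fibre genes ACTN3 and MYH1 had larger differences in Texel (3.03 and 2.48) than in Ujumqin (1.30 and 0.96). The fast myosin probes of OMYHC2A and OMYHC2X went the other way, with changes larger in Ujumqin by 1.06, 1.08 and 1.06. None of these differences between the breeds was past adjustment.

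A set of 12 genes was taken from the study's account of differences between the breeds at these stages, and of this set FBP2 was called within Ujumqin. The set is not complete, since the study also lists TMOD4. ACTN3, MYH1 and MYL6B are given above. EEF1A2, a translation elongation factor of mature muscle, was at means of 11.43 and 11.42 at 70 and 85 d and at 15.45 at 100 d. ALDOA, the muscle aldolase, differed by 0.36 by the study's probe and by 0.45 by a brighter one. The leptin receptor gene LEPR differed by 0.52 by the study's probe, STMN2, a stathmin of growing neurons, by 1.18 with an SE of 0.96, and PIK3R1, SELI and STAT3 by 0.28, 0.07 and -0.17. PRG3, a proteoglycan gene of eosinophils, differed by -1.08 with overlapping stages. The limma adjusted p-values of these 8 genes within Ujumqin, by the study's probes, were between 0.684 and 0.999. In Texel SELI rose by 2.83 (limma adjusted p = 0.00334). Its changes differed between the breeds by -2.75 ± 0.65 (SE), which was not past adjustment.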

How the data were processed

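Each fetus gave 1 Cy3-labelled RNA sample and 1 array. Per the file headers, the authors' scanner files hold the intensity of each spot from Feature Extraction 10.5, with background subtracted and arrays left unscaled. A table of log2 values, quantile-normalized by the authors, was also deposited. Every fetal column has a median of 8.64 and correlates at 0.999 or more with the values used here, so its scale and direction are those of the signal, and it was taken as an alternative. No columns of other series' samples were present, and the 9 postnatal arrays were not used.

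Control spots (leaving 15208) and spots marked as outliers were left out, spots of each of the 15008 probes were averaged, and the processed intensities of the 31 fetal arrays were quantile-normalized, raised to a floor of 1 and put on a log2 scale. A probe had to be well above background on 1 or more of the 31 arrays, which left out 623. Quantile normalization assumes that the arrays share a distribution of signals, and precision is limited by the number of arrays. The change was fitted by limma 3.58.1 in R 4.3.3 to the 15 Ujumqin fetal arrays by stage. The Texel change and the difference between breeds were fitted to the 31 fetal arrays in 10 groups. Tables and figures were made with numpy 2.4.6, pandas 2.3.3 and matplotlib 3.10.9 under Python 3.11.15.

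The files name 1605 probes, of which 343 were renamed through their accession or gene number. A further 247 were named by the study's annotation only, and those had been listed by the study for differences between the breeds. Those listings came from arrays of this series, so the named genes that the lists count were partly chosen on these data. The other 13156 have no name here. In gene lists each of 1161 named genes counts by its probe with the highest mean signal. The text names called genes (up to 12 a direction), called members of 20 gene lists, other measured members of the sarcomere, myogenic regulation and growth factor lists (1 gene is not reported here), up to 3 unnamed probes a direction, the genes the study names at these stages, and the sex checks. CATHL1B, OSTN, the genes called without U70 replicate 1 and the uncalled members of the other lists were picked after their values were seen. The stages, lists and members were chosen with earlier results of these data known.

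Alternatives changed how arrays were scaled and which were normalized together, the background (normexp, offset 50), the source, the filter, a floor of 16, the arrays fitted, the test, the threshold, the variance prior, sex, slide, replicate number and each array left out. The lists and the Texel sign share without U70 replicate 1 were added after seeing the data. Data for 14173 probes of the U70 and U85 comparison were simulated with noise drawn independently for each probe and array. At an adjusted p under 0.05 and any fold, the fit found 66 of 100 probes changed by 1 log2 unit. It found 95 of 100 changed by 2, with 3 others, and 0 when nothing was changed. The 2-fold rule was not applied there, so these counts do not give the power of the calls used here.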

Additional observations from a re-analysis of the deposited data

How the results depend on the processing

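The count of 31 called probes (24 higher, 7 lower) was within 1.5 times under 75th percentile scaling, quantiles over 15 or 6 arrays, the deposited table, no filter, a stricter filter, a floor of 16, an intensity trend, sex as a covariate and slide as a block, and under the fit of 31 arrays, which called 25 with 2 lower. It moved to 18 with normexp (13 higher, 5 lower), to 95 with array weights (55 and 40), to 8 on the 6 arrays alone, which are also those of 1 slide (6 and 2), and to 230 at the unadjusted threshold (122 and 108). An adjusted p at any fold gave 33 higher and 11 lower. The methods' unequal-variance test gave 0 after Benjamini-Hochberg adjustment (0 and 0) and 97 unadjusted with 2-fold (59 and 38). Leaving out 1 array gave 6 to 115 called, 4 to 42 higher and 2 to 73 lower. It was 115 without U70 replicate 1, 6 without U70 replicate 2, 14 without U70 replicate 3, 8 without U85 replicate 1, 19 without U85 replicate 2 and 15 without U85 replicate 3. The cause of these shifts was not tested.

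Same-numbered U70 and U85 arrays deviated from their group means with r of 0.15, -0.13 and 0.13. Between arrays of different number r ran from -0.26 (U70 replicate 1 with U85 replicate 3) to 0.18 (U70 replicate 1 with U85 replicate 2). Deviations from a mean of 3 arrays are not independent, so these values cannot decide whether the replicate numbers pair the samples. With the replicate block, 28 probes were called on 15 arrays (24 and 4) and 1 on 6 arrays (1 and 0).

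The difference between breeds, 0 called, went to 1 with the deposited table, and over the arrays left out it ran from 0 to 1 (1 without T70 replicate 3, another probe, and 1 without U70 or U85 replicate 2). Among the lists, genes called in the thick filament went from 1 to 0 on the 6 arrays and 3 with all probes, in the thin filament from 1 to 0 on the 6 arrays, in glycolysis from 2 to 1 on the 6 arrays and under 75th percentile scaling, in collagen and extracellular matrix from 0 to 1 with all probes (MMP-1) and 2 without U70 replicate 1, in calcium and excitation from 0 to 1 without it, and in the neural list from 1 to 0 without it and under 75th percentile scaling. The signs of STAT3 and EEF1A2, both near 0, turned. Over the arrays left out, STAT3 ran from -0.37 to 0.11, with 0.11 and 0.00404 without U70 or U85 replicate 2. EEF1A2 ran from -0.18 to 0.13, and it was at 0.00143 under 75th percentile scaling, 0.10 with array weights, 0.00245 with normexp, and 0.03, 0.13 and 0.10 without U70 replicate 1, U70 replicate 3 and U85 replicate 3. Probes near background, such as NPVF and FBP2 at 70 d, have only a bound or a weak level there.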

Other observations

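Outside the lists, the largest differences without a call were in CATHL1B, a cathelicidin gene of antimicrobial defence. Its probe A_70_P051377 was at 3.23, 3.00 and 5.04 on the U70 arrays, well above background on 1 of 3, and at 7.42, 8.49 and 11.45 on the U85 arrays. The stages did not overlap, and the difference of 5.37 ± 1.05 had a limma adjusted p of 0.0607. The other CATHL1B probe differed by 5.25 ± 1.04 (limma adjusted p = 0.0613). OSTN, the gene of the secreted peptide osteocrin of bone and muscle, was at 9.69, 11.69 and 11.85 at 70 d and at 8.23, 9.22 and 7.57 at 85 d, a difference of -2.73 ± 0.77 (limma adjusted p = 0.237), and U70 replicate 1 was its lowest U70 array.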
